A study of Mus musculus with 23 samples.

Results

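The control of the step from G1 to S phase was followed at the level of RNA through 10 genes, the D-type cyclins *Ccnd1*, *Ccnd2* and *Ccnd3*, the E-type cyclins *Ccne1* and *Ccne2*, the kinases *Cdk4* and *Cdk6*, the inhibitor *Cdkn1b* (p27) and the transcription factors *E2f1* and *Myc*. They were taken by Ensembl identifier from count tables that list 56941 genes, and all 10 were among the 14488 genes that passed the expression filter of the comparison. The libraries came from primary hippocampal neurons of newborn homozygous Nedd8cKO mice, whose floxed *Nedd8* gene is inactivated by CRE recombinase. All neurons carried that genotype. They were infected with lentivirus that drives either red fluorescent protein (RFP, the control) or CRE tagged with RFP from the Synapsin1 promoter, which is active mainly in neurons. The labels give 12 days in culture before RNA extraction, and the study's methods name a day later. Of the 23 libraries, 12 CRE and 11 RFP, a set of 21 (11 CRE and 10 RFP) was compared, and the number before the hyphen of a library name was read as 1 of 3 cultures. The legends and methods of the study put N, the animals or biological replicates, at 3 for these libraries, without naming which libraries belong to which. Whether RFP and CRE libraries of the same number share a culture is also not given. Libraries thus share a replicate, so p-values over 21 libraries measure in part technical spread and are too small where libraries of one replicate vary together. Counts summed per culture, 3 sums against 3, are given beside the calls among the 10 genes. Most calls of other genes are given over single libraries alone.

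NEDD8 is a small protein related to ubiquitin that is attached to cullins and switches on the cullin-RING ubiquitin ligases. Many of the proteins followed here are marked for destruction by these ligases. Cyclin D1 is recognized by receptors such as AMBRA1, FBXO4 and FBXO31, p27 and E2F1 by SKP2, and cyclin E and MYC by FBXW7. D-type cyclins bind CDK4 or CDK6 and phosphorylate the retinoblastoma protein, which then releases E2F factors, and these turn on cyclin E and the genes of DNA replication. Differentiated neurons have left the cell cycle, yet they keep RNA of D-type cyclins and of p27. The libraries measure RNA only, so the amount of any of these proteins is not part of the data.

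*Nedd8* itself stood between 44.1 and 76.0 CPM (normalized read counts, scaled to the size of each library with TMM factors) in RFP libraries and between 5.92 and 18.0 in CRE libraries, with no overlap between the groups. Total counts ran from 7430401 to 13345552 per CRE library and from 9833872 to 17112815 per RFP library. Nedd8Cre1-3, Nedd8RFP2-4 and Nedd8Cre3-3, the last of which was left out with Nedd8RFP3-2, stood apart from the other 20 libraries. Their mitochondrial genes took 0.261%, 3.43% and 1.83% of counts, against 6.997% to 11.1% in the others, and their counts rose with the GC content of genes (Spearman rho across genes of 0.739, 0.448 and 0.535, against -0.262 to 0.158). Among these 20, Nedd8Cre3-2 held the values 6.997% and 0.158, and the next highest rho was -0.0801 in Nedd8Cre2-1. It also had the most genes detected, 23738, against 20789 in Nedd8Cre2-1, the next highest. Nedd8Cre3-3 held 1546796 counts, and Nedd8RFP3-2 gave 24.2% of its counts to the ribosomal RNA gene *Rn18s-rs5*.

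At an adjusted p under 0.05, 2 of the 10 genes were higher in CRE than in RFP libraries, *Ccnd1* and *Cdk6*, and 1 was lower, *Cdk4*. Over all genes tested, 30.2% passed the same test, 16.4% upward and 13.8% downward, so the share among the 10 genes was near that of the whole table. *Ccnd1* was the only 1 of the 10 past the stricter rule of a log2 fold change beyond 1.3 and a -log10 adjusted p above 6, which 1.39% of all genes tested passed, 1.09% upward and 0.297% downward. Without Nedd8Cre1-3, Nedd8RFP2-4 and the 2 libraries already left out, the same 3 genes were called and *Ccnd3* was lower as well. With sums per culture, *Ccnd1* was called (log2 fold change 1.58, edgeR adjusted p = 0.000284), and *Cdk6* and *Cdk4* were not. *Ccnd2*, *Ccnd3*, *Ccne1*, *Ccne2*, *Cdkn1b*, *E2f1* and *Myc* did not pass the test, and their intervals are given below.

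**Figure D1:**
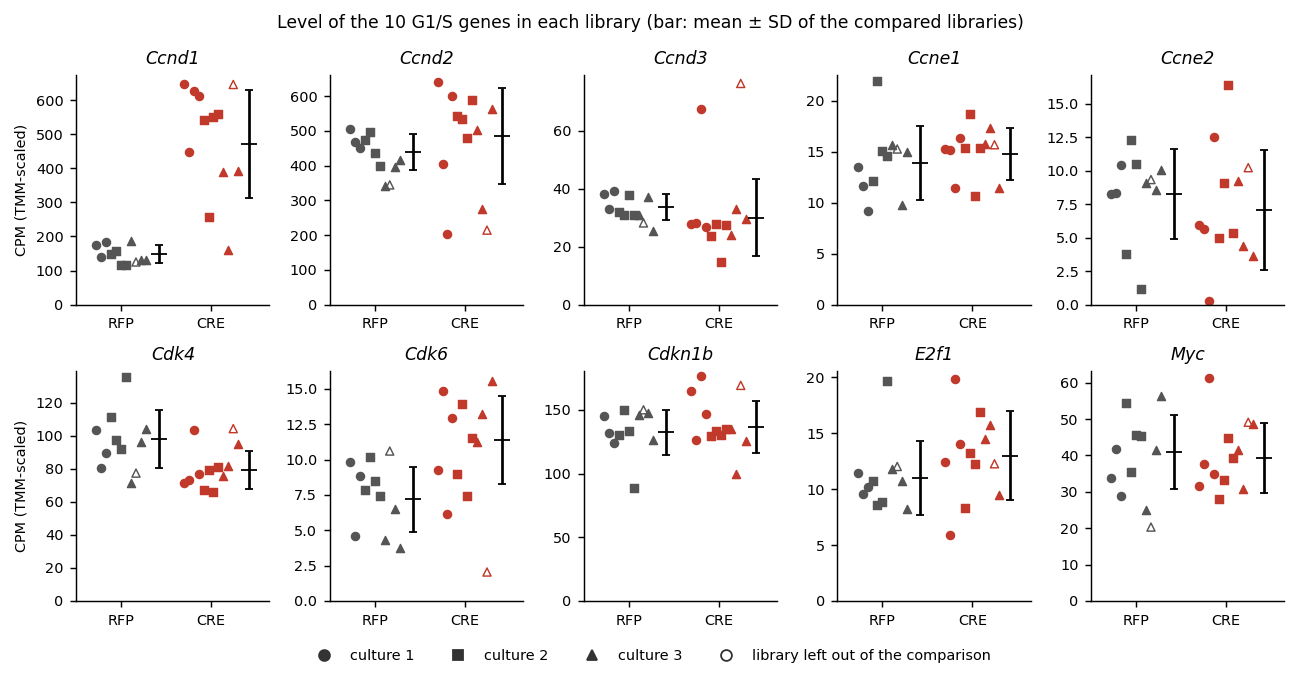
CPM of each of the 10 genes in each of the 23 libraries, RFP in grey and CRE in red, with the culture given by the symbol, open symbols for the 2 libraries left out, and the bar for the mean ± SD of the 21 libraries compared. Of the 11 filled CRE symbols for *Ccnd1*, 10 lie above every RFP symbol, and in the panels of *Ccne1* and *Cdkn1b* the groups lie over each other.

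*Ccnd2* encodes the D-type cyclin with the highest level in RFP libraries, and *Cdk4* and *Cdk6* encode the kinase partners of the D-type cyclins. The 250 bases before the start of the canonical transcript of these 3 genes are shown, read from the GRCm39 genome, because they hold the promoters of both kinases, which passed the test in opposite directions, and of a cyclin that did not pass. In all 3 genes other transcripts start further upstream, so the window lies inside the outer bounds of the gene. They were searched on both strands for the letters of 5 motifs: E2F (TTTCCCGC, TTTCGCGC, TTTGCCGC or TTTGGCGC), E-box (CACGTG, bound by MYC with MAX), the cAMP response element (TGACGTCA), AP-1 (TGACTCA or TGAGTCA) and TCF (CTTTGAT or CTTTGTT). None of the matches overlap each other. Capitals mark the matches. The *Ccnd2* window lies at chr6:127128024-127128273 on the minus strand, and *Cdk4* lies at chr10:126899125-126899374 and *Cdk6* at chr5:3393658-3393907, both on the plus strand.
Ccnd2: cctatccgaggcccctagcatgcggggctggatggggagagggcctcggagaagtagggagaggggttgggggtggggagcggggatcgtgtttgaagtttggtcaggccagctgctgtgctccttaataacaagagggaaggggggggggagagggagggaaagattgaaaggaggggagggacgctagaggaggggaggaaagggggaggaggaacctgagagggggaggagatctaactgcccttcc
Cdk4: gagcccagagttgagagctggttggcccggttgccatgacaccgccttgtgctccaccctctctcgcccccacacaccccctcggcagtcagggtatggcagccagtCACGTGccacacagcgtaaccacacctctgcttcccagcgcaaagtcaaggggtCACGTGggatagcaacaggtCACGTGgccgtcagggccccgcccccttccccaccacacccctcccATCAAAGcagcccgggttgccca
Cdk6: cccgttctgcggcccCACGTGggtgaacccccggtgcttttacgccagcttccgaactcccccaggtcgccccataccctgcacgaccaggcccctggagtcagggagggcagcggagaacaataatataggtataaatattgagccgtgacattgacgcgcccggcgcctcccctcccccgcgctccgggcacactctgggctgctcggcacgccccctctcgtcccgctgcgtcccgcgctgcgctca
The *Cdk4* window held 3 E-box matches and 1 TCF match, the last on the reverse strand as ATCAAAG, and that of *Cdk6* held 1 E-box match. None of the 5 motifs was found in the window of *Ccnd2*. The window of *Ccnd3* held 1 match of the E2F letters. Of 21667 promoters of the same length, 6.28% held the E-box letters, 7.60% those of TCF and 2.28% those of E2F, against 1.68% for the cAMP response element and 4.02% for AP-1. Both the gene that rose and the gene that fell among the kinases carried E-box letters.

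*Ccnd1* (ENSMUSG00000070348, chromosome 7 of GRCm39 from 144483668 to 144493662, minus strand) encodes cyclin D1, the cyclin that links growth factor signals to CDK4 and CDK6. The lowest, median and highest RFP library stood at 116, 144 and 186 CPM, and those of the CRE libraries at 159.7, 542 and 649 CPM. In 10 of 11 CRE libraries the level lay above every RFP library. The exception was Nedd8Cre3-2 at 159.7 CPM, the library with the GC correlation of 0.158. That many CRE libraries above every RFP library were found for 5.05% of the genes tested. The mean rose from 148 ± 26.1 (SD, n = 10) to 472 ± 158 (SD, n = 11) CPM, a log2 fold change of 1.65 (standard error 0.19, 95% interval 1.26 to 2.03, edgeR adjusted p = 2.27e-07), or 3.13-fold (2.40 to 4.09). By p, it ranked 188 of 14488 genes. The raw counts behind these levels were 1275 to 2581 in RFP and 1558 to 8561 in CRE libraries.

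The rise of *Ccnd1* was seen in each culture. Here and below, a difference within a culture is one between CRE and RFP libraries of the same number, whose pairing is not given. If that number marks a replicate, each side of such a difference is a single replicate. Its standard error and p-value then measure the spread between libraries of that replicate, not between replicates. In culture 1 its mean was 166 ± 22.9 CPM with RFP (SD, n = 3) and 584 ± 91.4 CPM with CRE (SD, n = 4). In culture 2 the means were 135 ± 21.5 and 478 ± 147 CPM (SD, n = 4 each), and in culture 3 they were 149 ± 31.7 and 313 ± 133 CPM (SD, n = 3 each). On the log2 scale the differences were 1.79 ± 0.30, 1.80 ± 0.27 and 1.07 ± 0.30 (± standard error, edgeR adjusted p = 0.000395, 0.000114 and 0.0439). Groups overlapped in culture 3 alone, through Nedd8Cre3-2. The interaction of culture and treatment did not pass the test for *Ccnd1* (edgeR adjusted p = 0.977), and over all genes tested 0.0069% did, with 595 genes and none of the 10 at an unadjusted p under 0.05.

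*Ccnd1* passed the test under each of the 36 alternative settings, with log2 fold changes between 1.52 and 1.80. Without Nedd8Cre1-3, whose composition stood apart, the value was 1.598 (edgeR adjusted p = 6.75e-07), and without Nedd8Cre3-2 it was 1.71 (edgeR adjusted p = 6.18e-09). The stricter rule was not passed in all of them. The -log10 adjusted p was 6.64 over the 21 libraries and 5.88 to 8.21 when single libraries were left out. It was 5.30 without the libraries that stood apart and Nedd8RFP3-2, 3.96 without culture 1, 3.12 without culture 2 and 3.55 with sums per culture, all under the limit of 6. Exons of *Ccnd1* overlap those of *LTO1* on the opposite strand over 2315 of their 4783 bases, and the strand setting of the counting is not given in the sources used here. The mean level of *LTO1* was 16.1 ± 3.91 CPM (SD, n = 10) for RFP and 20.6 ± 5.46 CPM (SD, n = 11) for CRE (log2 fold change 0.34, edgeR adjusted p = 0.114).

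Over the 21 libraries, the genes whose CPM ranked most like that of *Ccnd1* were *Ifitm3* (Spearman rho 0.952), an interferon-inducible membrane protein, and *Akap12* (rho 0.949), a scaffold for protein kinases. Both were higher in CRE libraries, with means of 6.64 and 46.6 CPM for *Ifitm3* and of 46.7 and 259.5 CPM for *Akap12* in RFP and CRE libraries. These correlations describe the shared libraries, among them the difference between the groups.

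*Ccnd2* (ENSMUSG00000000184, chromosome 6 from 127102125 to 127129156, minus strand) encodes cyclin D2. Its RFP libraries ran from 340.1 over a median of 443 to 507 CPM, and its CRE libraries from 204 over 533 to 640.3 CPM. CRE libraries thus lay on both sides of the RFP range, 6 above and 2 below it. The 2 lowest were Nedd8Cre1-3 at 204 and Nedd8Cre3-2 at 276 CPM. Over the groups the log2 fold change was 0.13 (95% interval -0.19 to 0.44, edgeR adjusted p = 0.582), and no alternative setting brought it past the test. Without Nedd8Cre1-3 it was 0.21 (edgeR adjusted p = 0.134), and with the libraries of the methods 0.26 (edgeR adjusted p = 0.0615).

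*Ccnd3* (ENSMUSG00000034165, chromosome 17 from 47815767 to 47910624, plus strand) encodes cyclin D3. RFP libraries stood at 25.5, 32.5 and 39.4 CPM (lowest, median and highest), and CRE libraries at 14.7, 27.7 and 67.4 CPM. The highest CRE value was that of Nedd8Cre1-3, and Nedd8Cre3-3, left out of the comparison, was at 76.4 CPM, while the other 10 CRE libraries stood at 32.9 or below, 3 of them under every RFP library. Over the 21 libraries the log2 fold change was -0.18 (95% interval -0.55 to 0.18, edgeR adjusted p = 0.476). Without Nedd8Cre1-3 it became -0.37 (edgeR adjusted p = 0.0156), and with the libraries that the methods name it was -0.33 (edgeR adjusted p = 0.0266). It also passed over the 21 libraries once the trend with GC content was removed from each (-0.34, edgeR adjusted p = 0.0274). A processed pseudogene, *Ccnd3-ps*, shares 50-base stretches with 7.26% of the transcript.

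**Figure D2:**
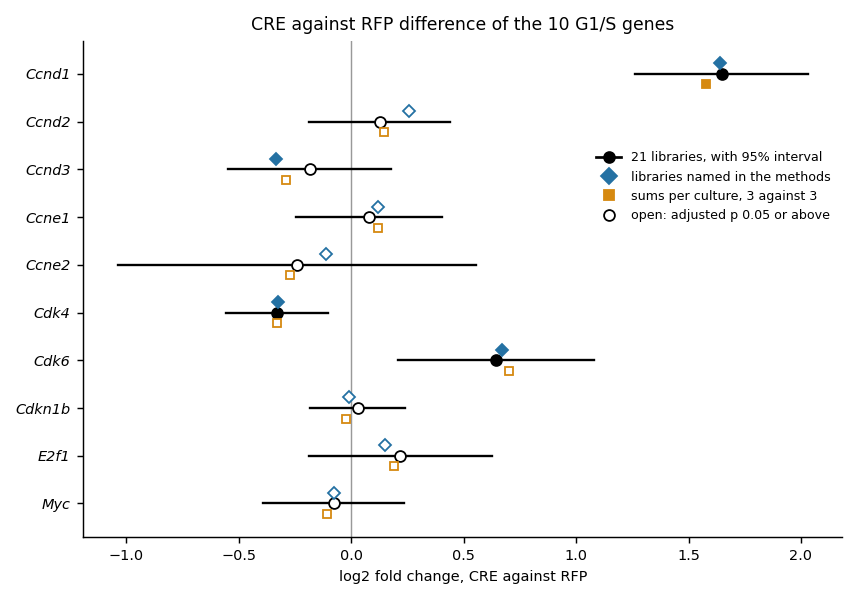
Log2 fold change of each of the 10 genes, CRE against RFP, with the 95% interval over the 21 libraries (circles), beside the libraries named in the methods (diamonds) and sums per culture (squares), filled where the adjusted p was under 0.05. *Ccnd1* stands apart at 1.65 and is filled in all 3 settings, and *Ccnd3* is filled only with the libraries of the methods.

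Because the 3 D-type cyclins bind the same kinases, their make-up was compared per length of transcript, which does not depend on the depth of a library. In RFP libraries *Ccnd2* made up 55.4% ± 4.18 (SD, n = 10) of their summed level, *Ccnd1* 31.2% ± 4.24 and *Ccnd3* 13.4% ± 1.63 (SD). In CRE libraries *Ccnd1* made up 56.1% ± 9.25 (SD, n = 11), *Ccnd2* 36.4% ± 9.19 and *Ccnd3* 7.48% ± 4.08. The leading D-type cyclin thus was *Ccnd2* in RFP and *Ccnd1* in CRE libraries, by the mean per transcript length. *Ccnd2* led in all 10 RFP libraries, and *Ccnd1* led in 9 of 11 CRE libraries. The exceptions, Nedd8Cre2-2 and Nedd8Cre3-2, had a *Ccnd1* share of 41.0% and 41.2%. The lead in CRE libraries depended on the scaling by length. In shares of raw counts *Ccnd2* kept it by the mean, with 49.7% against 46.9% for *Ccnd1*. Per union length of all exons *Ccnd1* led, with 62.9% against 34.8% for *Ccnd2*.

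The differences between the groups were 24.9 percentage points for *Ccnd1* (permutation test of 100000 resamples, two-sided, adjusted p = 9e-05), -19.0 for *Ccnd2* (adjusted p = 9e-05) and -5.88 for *Ccnd3* (adjusted p = 0.0009, all by the same permutation test with Benjamini-Hochberg adjustment over the 3 shares). The permutation took single libraries as units, so these p-values too are too small where libraries of one replicate vary together. The shares were not tested with the culture as the unit. Since the shares add up to a whole, they are not independent, and the fall of the *Ccnd2* share went with a *Ccnd2* level whose difference did not pass the test. Within cultures, the *Ccnd1* share was 31.8% and 62.9% (RFP and CRE) in culture 1, 28.7% and 55.5% in culture 2, and 33.9% and 48.0% in culture 3. The summed level of all 3 cyclins had a mean of 125 ± 12.2 CPM per kb of transcript with RFP (SD, n = 10) and of 216 ± 51.6 with CRE (SD, n = 11), where the lowest library, Nedd8Cre3-2, stood at 102. In raw counts, the ratio of *Ccnd1* to *Ccnd2* had a median of 0.316 in RFP and 0.997 in CRE libraries, with Nedd8Cre1-3 highest at 3.08.

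**Figure D3:**
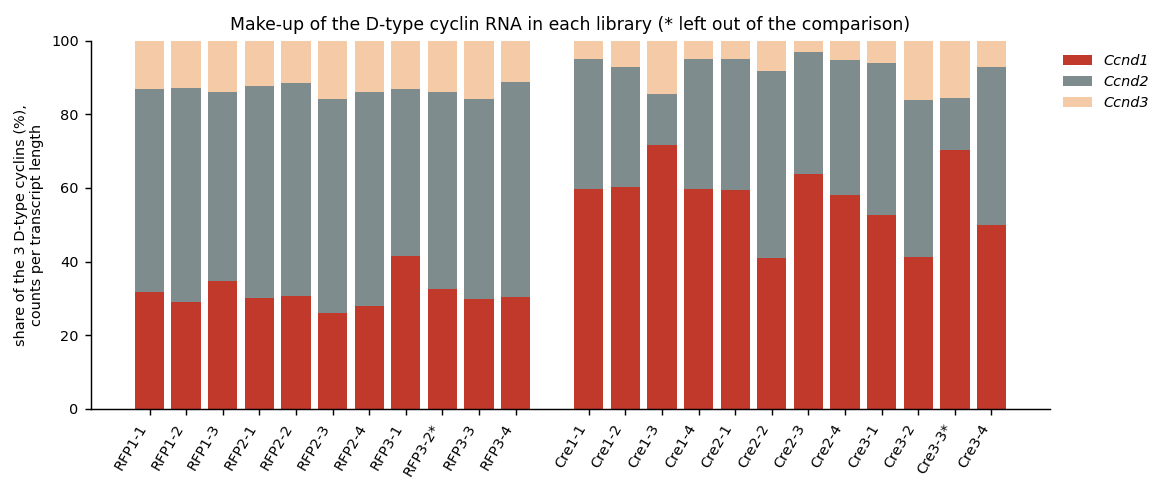
Share of *Ccnd1*, *Ccnd2* and *Ccnd3* in their summed level per transcript length (percent, y axis) in each of the 23 libraries, RFP at the left and CRE at the right. The *Ccnd1* share (red) lies between 26.1% and 41.4% in the RFP and between 41.0% and 71.6% in the CRE libraries compared.

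*Cdk6* (ENSMUSG00000040274, chromosome 5 from 3391485 to 3581008, plus strand) encodes the kinase partner of D-type cyclins with the lower RNA level here. RFP libraries stood at 3.73, 7.65 and 10.2 CPM (lowest, median and highest), and CRE libraries at 6.13, 11.5 and 15.6 CPM. Of the 11 CRE libraries, 7 lay above every RFP library and the other 4 within their range. The mean rose from 7.18 ± 2.31 (SD, n = 10) to 11.4 ± 3.09 (SD, n = 11) CPM, a log2 fold change of 0.64 (standard error 0.21, 95% interval 0.21 to 1.08, edgeR adjusted p = 0.0223). These levels rest on 37 to 143 counts in RFP and 45 to 203 in CRE libraries.

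The groups of *Cdk6* were apart in culture 3 alone, where the log2 fold change was 1.45 ± 0.38 (± standard error, edgeR adjusted p = 0.0293), against 0.45 ± 0.35 in culture 1 and 0.28 ± 0.32 in culture 2, neither past the test. The difference between cultures did not pass the interaction test (adjusted p = 0.977, p = 0.0686 unadjusted, both from edgeR). The call was lost over all 23 libraries (0.52, edgeR adjusted p = 0.106), with sums per culture (0.70, edgeR adjusted p = 0.0536), without culture 3 (0.33, edgeR adjusted p = 0.345), without culture 2 (0.91, edgeR adjusted p = 0.0515), without Nedd8Cre1-2 (0.56, edgeR adjusted p = 0.0514) and without Nedd8Cre3-4 (0.56, edgeR adjusted p = 0.0523). Both left-out libraries are of culture 3. Nedd8Cre3-3 held 3 counts of *Cdk6*, and Nedd8RFP3-2 stood at 10.6 CPM, above every RFP library compared. Over all 23 libraries the culture 3 value was 0.82 ± 0.43 (± standard error, edgeR adjusted p = 0.263). With the libraries of the methods it was 1.11 (edgeR adjusted p = 0.0315). The genes ranked most like *Cdk6* over the 21 libraries were *1810030O07Rik* (rho 0.860) and *Mbd4* (rho 0.832), a DNA glycosylase, and neither passed the test itself.

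*Cdk4* (ENSMUSG00000006728, chromosome 10 from 126895180 to 126903789, plus strand) encodes the kinase partner of D-type cyclins with the higher RNA level here. RFP libraries stood at 71.2, 96.7 and 136 CPM (lowest, median and highest), and CRE libraries at 65.8, 76.7 and 104 CPM. The groups overlapped, with 2 of 11 CRE libraries below every RFP library. The mean fell from 98.2 ± 17.7 (SD, n = 10) to 79.2 ± 11.4 (SD, n = 11) CPM, a log2 fold change of -0.33 (standard error 0.11, 95% interval -0.56 to -0.10, edgeR adjusted p = 0.0253).

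Within cultures, the *Cdk4* log2 fold change was -0.59 ± 0.18 in culture 2 (± standard error, edgeR adjusted p = 0.0341), -0.20 ± 0.19 in culture 1 and -0.11 ± 0.21 in culture 3. The highest RFP level, 136 CPM, was that of Nedd8RFP2-4, and without it the value was -0.25 (edgeR adjusted p = 0.0725). The call was also lost over all 23 libraries (-0.25, edgeR adjusted p = 0.106), with sums per culture (-0.33, edgeR adjusted p = 0.0531), without the filter on low counts (-0.32, edgeR adjusted p = 0.0592) and without culture 2 (-0.14, edgeR adjusted p = 0.578). Exons of *Cdk4* overlap *Tspan31* on the opposite strand over 646 of 3440 bases. *Tspan31* had a log2 fold change of 0.13 (edgeR adjusted p = 0.459). The genes ranked most like *Cdk4* were *Sarm1* (rho 0.842), an NAD-cleaving enzyme of axon degeneration, and *Ppp1r14b* (rho 0.839), a phosphatase inhibitor, and neither passed the test. The raw count ratio of *Cdk6* to *Cdk4* had a median of 0.0690 in RFP (0.0357 to 0.104) and 0.148 in CRE libraries (0.0591 to 0.203), so *Cdk4* counts exceeded those of *Cdk6* in every library of both groups.

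**Figure D4:**
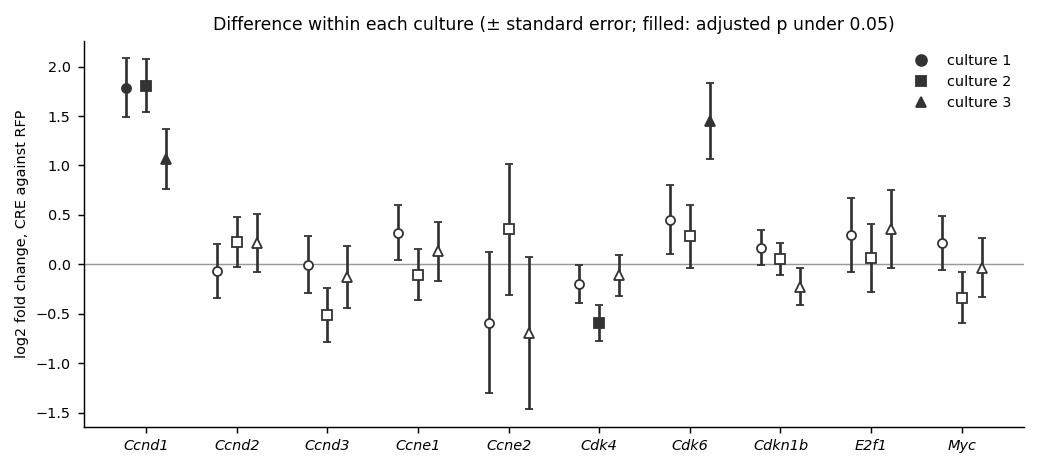
Log2 fold change of each of the 10 genes within each of the 3 cultures (± standard error), CRE against RFP, filled where the adjusted p was under 0.05. *Ccnd1* is filled in all 3 cultures, *Cdk6* in culture 3 alone and *Cdk4* in culture 2 alone. Values are over the 21 libraries compared. Standard errors and adjusted p took single libraries as units, which may all be of a single replicate on each side.

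*Ccne1* (ENSMUSG00000002068, chromosome 7 from 37797404 to 37808264, minus strand) encodes cyclin E1, which with CDK2 carries cells into S phase. It stood at 9.16, 14.1 and 21.9 CPM (lowest, median and highest) in RFP and at 10.7, 15.4 and 18.7 CPM in CRE libraries, with every CRE library inside the RFP range. *Ccne1* had a log2 fold change of 0.08 (95% interval -0.25 to 0.40, edgeR adjusted p = 0.759). *Ccne2* (ENSMUSG00000028212, chromosome 4 from 11190303 to 11204947, plus strand) encodes cyclin E2 and stood at 1.18, 8.81 and 12.3 CPM in RFP and at 0.272, 5.63 and 16.4 CPM in CRE libraries. Its lowest values were those of Nedd8Cre1-3, at 2 counts, and Nedd8RFP2-4, at 13 counts. Its log2 fold change was -0.24, with the widest interval of the 10 genes (-1.04 to 0.55, edgeR adjusted p = 0.689). Without Nedd8Cre1-3 it was -0.11 (edgeR adjusted p = 0.808). Exons of *Ccne2* overlap *Ints8* on the opposite strand over 852 of 5621 bases.

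*Cdkn1b* (ENSMUSG00000003031, chromosome 6 from 134897364 to 134902476, plus strand) encodes p27, which holds cyclin E with CDK2 inactive. RFP libraries stood at 88.9, 133 and 149.7 CPM (lowest, median and highest), and CRE libraries at 99.7, 133 and 176 CPM. The medians of both groups were the same to 3 digits. The log2 fold change was 0.03 (95% interval -0.18 to 0.24, edgeR adjusted p = 0.874), the narrowest interval of the 10 genes, and its sign changed between settings (-0.014 without Nedd8Cre1-3, edgeR adjusted p = 0.923).

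*E2f1* (ENSMUSG00000027490, chromosome 2 from 154401326 to 154411812, minus strand) encodes the E2F factor that opens the replication program. It stood at 8.27, 10.5 and 19.7 CPM (lowest, median and highest) in RFP and at 5.93, 13.2 and 19.9 CPM in CRE libraries, and the highest values were those of Nedd8RFP2-4 and Nedd8Cre1-3, in both groups libraries whose composition stood apart. For *E2f1* the log2 fold change was 0.22 (95% interval -0.19 to 0.62, edgeR adjusted p = 0.450). Without Nedd8Cre1-3 it was 0.14 (edgeR adjusted p = 0.607), and without Nedd8RFP2-4 it was 0.37 (edgeR adjusted p = 0.149). *Myc* (ENSMUSG00000022346, chromosome 15 from 61857227 to 61862223, plus strand) encodes the growth-promoting transcription factor. It stood at 25.1, 41.7 and 56.4 CPM in RFP and at 28.0, 37.6 and 61.2 CPM in CRE libraries, the highest again in Nedd8Cre1-3. For *Myc* the log2 fold change was -0.08 (95% interval -0.39 to 0.24, edgeR adjusted p = 0.752), and without Nedd8Cre1-3 it was -0.16 (edgeR adjusted p = 0.378).

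Levels of different genes were compared as CPM per kb of the canonical transcript. In RFP libraries the order of the means was *Ccnd2* (69.3), *Cdk4* (47.2), *Ccnd1* (39.1), *Cdkn1b* (29.0), *Myc* (17.2), *Ccnd3* (16.7), *Ccne1* (6.67), *E2f1* (4.02), *Ccne2* (1.58) and *Cdk6* (0.616). Among neighbours in that order, the mean ± SD overlapped for *Cdk4* and *Ccnd1*, *Ccnd1* and *Cdkn1b*, *Myc* and *Ccnd3*, and *Ccne1* and *E2f1*. The genes were measured in the same libraries, so such overlap does not show whether 2 genes differ within libraries, which was not tested. In CRE libraries *Ccnd1* came at the head with 124 ± 41.7 CPM per kb (SD, n = 11), before *Ccnd2* with 76.7 ± 21.7, and the spread of these genes overlapped. The other 8 genes kept the order they had among themselves in RFP libraries. *Cdk6* had the lowest mean of the 10 genes per length in both groups, and in CRE libraries its spread overlapped that of *Ccne2*.

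The partners and regulators of the 10 genes were followed with 8 lists of 149 genes in all, 147 of them tested. The test was passed by 55 of them, 29 upward and 26 downward, or 37.4%. Over all genes tested the share was 30.2%, 16.4% upward and 13.8% downward, and the counts of each list below stand against these shares. The median log2 fold change over all genes tested was 0.02. Genes named from each list were mostly picked by smallest p, so groups without overlap are likely among them. Of all genes tested, 5.05% had at least 10 of 11 CRE libraries above every RFP library. The share with CRE libraries below every RFP library was not counted.

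**Figure D5:**
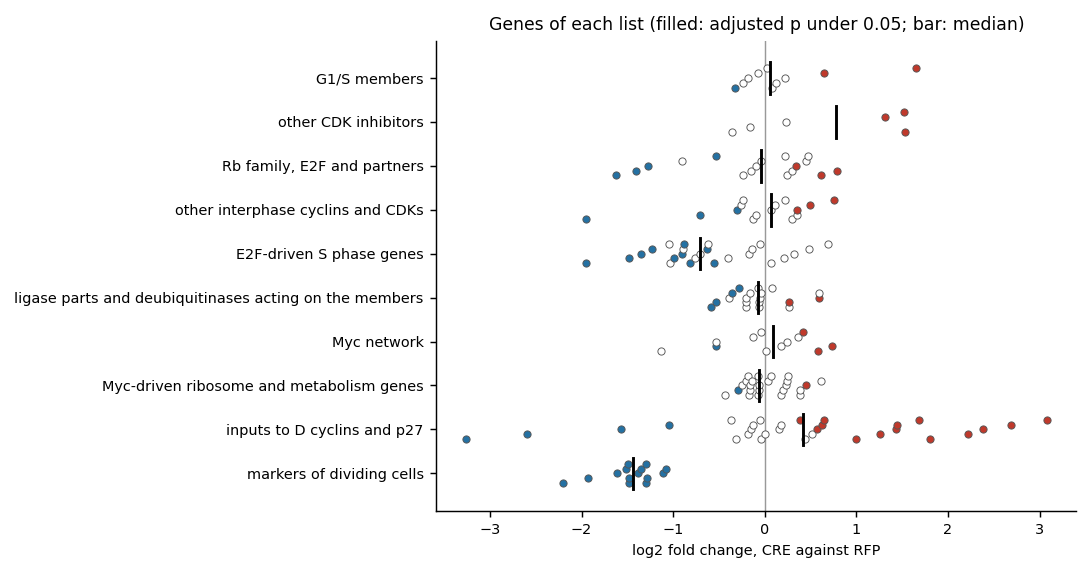
Log2 fold change, CRE against RFP, of each tested gene of the 10 G1/S genes, the 8 lists of partners and regulators and the markers of dividing cells, filled red (higher) or blue (lower) where the adjusted p was under 0.05, with a bar at the list's median. The markers of dividing cells all lie below 0, and the list of inputs spans from -3.27 to 3.08.

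Of the 6 other CDK inhibitors, 3 rose and none fell (median log2 fold change 0.77). With the libraries of the methods 3 rose and 1 fell (median 0.62), as with the GC trend removed (median 0.74). Without the libraries that stood apart and Nedd8RFP3-2, 2 rose and 1 fell (median 0.52). *Cdkn1a*, which encodes p21, stood between 31.9 and 57.2 CPM in RFP and between 81.6 and 163 CPM in CRE libraries, without overlap (1.52 ± 0.14, ± standard error, edgeR adjusted p = 8.02e-09). *Cdkn2b*, which encodes the INK4 protein p15 that blocks CDK4 and CDK6, stood between 2.98 and 8.74 CPM in RFP and between 10.8 and 24.4 CPM in CRE libraries (1.53 ± 0.19, edgeR adjusted p = 1.16e-06). For both, all 11 CRE libraries lay above every RFP library. The third, *Cdkn2a*, which encodes the INK4 protein p16 and p19ARF (1.31 ± 0.42, edgeR adjusted p = 0.0193), did not pass the test with sums per culture (edgeR adjusted p = 0.0863) or without the libraries that stood apart (edgeR adjusted p = 0.0867). *Cdkn1c* (p57), related in sequence to *Cdkn1b*, stood at 2.56 and 2.02 CPM (-0.36, edgeR adjusted p = 0.531).

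Of 17 genes of the retinoblastoma family, the E2F factors and their partners, 3 rose and 4 fell (median -0.04). *Tfdp2* (0.79 ± 0.14, edgeR adjusted p = 9.44e-05) and *E2f6*, a repressor (0.62 ± 0.13, edgeR adjusted p = 0.000513), were higher, and *Tfdp1*, the other dimerization partner of E2F factors (-0.54 ± 0.11, edgeR adjusted p = 0.000506), and *E2f8* (-1.63 ± 0.34, edgeR adjusted p = 0.000552) were lower. *Rbl2* also rose, and *E2f2* and *E2f7* also fell. Of the E2F factors, those that fell (*E2f2*, *E2f7* and *E2f8*) did so beside an *E2f1* that did not pass the test. The 2 dimerization partners thus moved in opposite directions, *Tfdp1* from 62.5 to 43.7 CPM and *Tfdp2* from 23.2 to 40.4 CPM. *Rb1*, the substrate of the D-type cyclin kinases, stood at 36.2 and 49.99 CPM (0.45, edgeR adjusted p = 0.106), and with the libraries of the methods it passed the test (0.58, edgeR adjusted p = 0.00128).

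Of 15 other interphase cyclins and kinases tested, 3 rose and 3 fell (median 0.06). *Ccna2*, the S phase cyclin, fell from 27.6 ± 5.21 (SD, n = 10) to 7.20 ± 5.35 (SD, n = 11) CPM, with every CRE library below every RFP library (-1.95 ± 0.33, edgeR adjusted p = 5.67e-05). *Cdk14*, a kinase of the cyclin Y group, fell (-0.71 ± 0.19, edgeR adjusted p = 0.00637), while *Ccni* (0.35 ± 0.08, edgeR adjusted p = 0.00212) and *Cdk7*, which activates other cyclin-dependent kinases (0.75 ± 0.20, edgeR adjusted p = 0.00638), rose. *Ccng1*, a p53 target, also rose, and *Ccny*, the partner of *Cdk14*, also fell. *Cdk2*, the partner of cyclin E, stood at 7.67 and 9.52 CPM (0.29, edgeR adjusted p = 0.347).

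Of 25 replication genes driven by E2F factors, none rose and 10 fell (median -0.71). *Rrm2*, a subunit of ribonucleotide reductase, fell from 33.8 to 18.5 CPM (-0.89 ± 0.18, edgeR adjusted p = 0.000547) beside *Ccna2*, which this list also holds. The markers of dividing cells moved the same way, with 14 of 14 lower and a summed level of 221 to 397 CPM in RFP and 20.03 to 243 CPM in CRE libraries. *Ccnb1*, *Aurkb* and *Tpx2* were at 0 in 1 library each and *Bub1* in 2. Among them *Mki67* went from 88.9 to 23.6 CPM and *Cdc20* from 15.6 to 5.66 CPM. In bulk RNA, fewer cells of a type and less RNA per cell cannot be told apart. The part of dividing cells in the change of the replication genes was not tested. The other 15 replication genes did not pass the test, 5 of them with a positive log2 fold change. With the libraries of the methods, 2 were higher and 11 lower. Of the 14 markers, 5 passed without culture 2 and 10 with sums per culture. Without culture 2, fewer genes were called throughout, and of the replication genes 4 passed the test, all lower, with a median of -0.63.

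Of 19 ligase parts and deubiquitinases that act on the proteins of the 10 genes, 2 rose and 4 fell (median -0.08). That share of calls was near the 30.2% of all genes. *Fbxw7*, the receptor for cyclin E and MYC, stood between 98.8 and 148 CPM in RFP and between 55.2 and 95.7 CPM in CRE libraries, without overlap (-0.59 ± 0.10, edgeR adjusted p = 0.000114). *Trim32*, a ligase that acts on MYC, fell from 286 to 227 CPM (-0.35 ± 0.08, edgeR adjusted p = 0.0012). *Usp36* (0.59 ± 0.17, edgeR adjusted p = 0.00879), a deubiquitinase of MYC, and *Ddb1* (0.26 ± 0.08, edgeR adjusted p = 0.0158), the adaptor of CUL4 ligases, rose. The RING subunit *Rbx1* and the scaffold *Cul4a* also fell. The call of *Ddb1* was lost over all 23 libraries (edgeR adjusted p = 0.123).

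The receptors for p27 and cyclin D1 did not pass the test. *Skp2* stood at 11.4 and 10.99 CPM (-0.07, edgeR adjusted p = 0.872), *Ambra1* at 61.8 and 66.1 CPM (0.08, edgeR adjusted p = 0.675) and *Fbxo4* at 3.62 and 3.18 CPM (-0.21, edgeR adjusted p = 0.662). *Fbxo31* had a log2 fold change of -0.40 (edgeR adjusted p = 0.0643), with 10 of 11 CRE libraries below every RFP library and Nedd8Cre1-3 above them all. With the libraries of the methods, without Nedd8Cre1-3, it passed the test (-0.54, edgeR adjusted p = 2.67e-05).

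Of 12 genes of the MYC network, 3 rose and 1 fell (median 0.09), also a share of calls near the 30.2% of all genes. *Mxi1* (0.58 ± 0.11, edgeR adjusted p = 0.000322) and *Mxd4* (0.73 ± 0.14, edgeR adjusted p = 0.000354), whose proteins compete with MYC for its partner MAX, rose from 45.6 to 68.9 and from 83.5 to 141 CPM, and *Max* itself rose too. *Mycl*, a relative of *Myc*, fell from 73.3 to 51.2 CPM (-0.54 ± 0.20, edgeR adjusted p = 0.0382), but not over all 23 libraries (edgeR adjusted p = 0.281) or with those of the methods (edgeR adjusted p = 0.0642). *Mycn*, the relative that neural progenitors use, stood at 45.9 and 32.2 CPM (-0.53, edgeR adjusted p = 0.0683). With the libraries of the methods its value was -0.80 (edgeR adjusted p = 1.21e-05). Of 24 ribosome and metabolism genes driven by MYC, 1 rose and 1 fell (median -0.06), *Odc1*, an enzyme of polyamine synthesis (0.45 ± 0.13, edgeR adjusted p = 0.0108), and *Nop56*, a nucleolar protein (-0.29 ± 0.10, edgeR adjusted p = 0.031).

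Of 30 tested genes of the signals that feed D-type cyclins and p27, 14 rose and 4 fell (median 0.41), the highest share of calls among the 8 lists. *Dusp6*, a phosphatase that ERK signaling induces, stood between 29.4 and 60.3 CPM in RFP and between 148 and 188 CPM in CRE libraries (1.80 ± 0.12, edgeR adjusted p = 2.13e-11). *Spry4*, an inhibitor that the same pathway induces, rose from 40.5 to 111 CPM (1.43 ± 0.11, edgeR adjusted p = 2.8e-10). For both, no CRE library overlapped the RFP range. *Hes5*, a target of Notch signaling, fell from 12.4 to 1.304 CPM (-3.27 ± 0.33, edgeR adjusted p = 4.11e-08), and *Etv1* fell from 54.1 to 18.5 CPM (-1.57 ± 0.36, edgeR adjusted p = 0.00158).

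Other cells of the dish were followed by their markers. Of the neuron markers, 1 of 12 was higher, *Nefm*, and 6 were lower, among them *Syn1* and *Rbfox3* (summed level 7166 to 8474 CPM in RFP and 4107 to 7129 in CRE libraries), and none of them was at 0 in a library. Of the astrocyte markers, 3 of 12 were higher (*Sox9*, *Gjb6* and *Gja1*) and 5 lower, led by *S100b* and *Slc1a2* (3861 to 8174 and 1775 to 5479 CPM). Of the neural progenitor markers, 3 of 10 tested were higher, *Nes* (126 to 977 CPM), *Vim* and *Pax6*, and 3 lower, led by *Hes5* (summed level 1871 to 2762 and 1620 to 4033 CPM). Of the oligodendrocyte lineage markers, none of 11 tested was higher and 8 were lower (685 to 2058 and 448 to 1981 CPM), with *Enpp6* at 0 in 6 libraries and *Sox10* in 3. Endothelial and mesenchymal markers had 2 higher, *Rgs5* and *Pdgfrb*, and 1 lower, *Kdr*, of 10 tested (24.7 to 193 and 86.9 to 495 CPM), with *Cldn5* at 0 in 19 of 21 libraries. Of the microglia markers 3 of 11 passed the filter and 1 was higher, *Tmem119* (2.77 to 11.8 and 5.72 to 14.1 CPM), with *Cx3cr1* and *Trem2* at 0 in 18 of 21 libraries each. With sums per culture, 1 astrocyte marker was higher and 3 were lower. No neuron marker was then higher and 6 were lower, and 5 oligodendrocyte lineage markers were lower. Without culture 2, where fewer genes were called throughout, 1 astrocyte marker was higher and 0 were lower. In that setting 0 neuron markers were higher and 4 lower, and 3 oligodendrocyte lineage markers were lower. Nedd8Cre3-2, the CRE library with the lowest *Ccnd1*, also had the lowest summed level of astrocyte and of progenitor markers among the 21 libraries. The part of these cells in the levels of *Ccnd1*, *Cdk6* and *Cdk4* was not tested.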

How the data were processed

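The authors prepared stranded mRNA libraries, mapped the reads to GRCm39 and deposited raw read counts for each gene and library, with no normalization. Per the labels, the submitters' processing notes name bcl2fastq 2.20.0.422, STAR 2.7.8a and featureCounts 1.5.0-p1. The strand setting and the handling of reads with several placements are not given in the sources used here, so counts of overlapping or similar genes are uncertain. Genes were named with GENCODE M39.

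The 21 libraries are those of the study's own count sheet, which leaves out Nedd8Cre3-3 and Nedd8RFP3-2. The methods name Nedd8Cre1-3 and Nedd8Cre3-3 instead, and that set was an alternative. The groups were compared with edgeR 4.0.16 in R 4.3.3 (filterByExpr, TMM factors, robust quasi-likelihood fit), with Benjamini-Hochberg adjustment over 14488 genes. CPM used TMM factors over all 23 libraries. Shares were compared by permutation in scipy 1.17.1. Figures came from matplotlib 3.10.9. DESeq2 1.42.0, other scaling factors and other sets of libraries were alternatives. The edgeR fit was tested on simulated data.

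The 10 genes and all lists, including markers of 7 cell classes, were chosen with earlier results of these data known. Named besides them are, per list, the 2 genes higher and the 2 lower with the smallest p past the test, the receptors of the ligases, *Cdkn1a*, *Cdkn1c*, *Cdk2*, *Rb1* and *Mycn*, and the 2 genes ranked most like each called member. The genes that overlap members, *Ccnd3-ps*, further called genes of short counts and single markers were named after their values were seen. A promoter window and a marker gene are not reported here.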

Additional observations from a re-analysis of the deposited data

Results flagged for a closer look

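Of the 10 genes, 3 had a library far from the others of the RFP group, by the gap to the nearest library over the range of the group. Chance alone gives this in about 1 in 20 groups, and the CRE group of 11 libraries was not examined in this way. *Ccne1* stood at 21.9 CPM in Nedd8RFP2-2, against 15.7 in the next highest of 10 RFP libraries. *Cdkn1b* stood at 88.9 CPM in Nedd8RFP2-4, against 124 in the next lowest. *E2f1* stood at 19.7 CPM in Nedd8RFP2-4, against 11.8 in the next highest. Nedd8RFP2-4 is the RFP library with 3.43% of counts in mitochondrial genes. Without it, the log2 fold change of *Cdkn1b* was -0.01 and that of *E2f1* was 0.37, and neither passed the test (edgeR adjusted p = 0.970 and 0.149). The cause of these values was not tested.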

How the results depend on the processing

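The test called 4370 genes, 54.3% of them higher in CRE libraries. The count was 6920 without the filter on low counts (63.1% higher, with the median log2 fold change of all genes moved to 0.14), 2114 without culture 2 (62.0% higher) and 3365 to 5582 in the other settings, with 4031 to 5507 when single libraries were left out. *Ccnd1* was called in all 36 settings and its share of the D-type cyclins in all 8, each of which permuted single libraries. *Ccnd2*, *Ccne1*, *Ccne2*, *Cdkn1b*, *E2f1* and *Myc* were called in none of the 36. Of the 10 genes, 1 in place of 2 was higher over all 23 libraries, with the library number as a block, without culture 2, without culture 3, and with sums per culture with and without the block, and 1 to 2 were higher when single libraries were left out. In place of 1 gene, 0 were lower over all 23 libraries, without the filter, without culture 2 and with both kinds of sums, and 2 were lower with the libraries of the methods, without 4 libraries and with the GC trend removed. Leaving out single libraries gave 0 to 2. *Ccnd3* passed with the GC trend removed (-0.34, edgeR adjusted p = 0.0274).

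Of the pathway genes, 9 were lower without culture 2, and 23 to 37 when single libraries were left out. The interaction of culture and treatment called 1 gene, against 0 over all 23 libraries, 45 with the libraries of the methods and 36 without 4 libraries. Signs turned only where the log2 fold change lay near 0: *Ccnd3* to 0.0097 and *Myc* to 0.033 over all 23 libraries, *Myc* to 0.10 without culture 2, *Ccne1* to -0.0064 without culture 1, and *Cdkn1b* to -0.012 with the libraries of the methods, -0.066 without 4 libraries, -0.063 without culture 1, -0.023 with sums per culture and -0.027 with sums and the block, with -0.031 to 0.049 over single libraries left out. The cause was not tested.

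Same-numbered groups did not deviate together (correlation 0.0303, 0.0429 and 0.127 for cultures, 0.117, -0.0246, -0.117 and -0.251 for library numbers). The values gave no sign that the numbers pair the libraries, but deviations over so few groups cannot settle it. If the culture numbers do not pair them, the differences within cultures and the interaction compare groups matched by number alone. With culture as a replicate block, 4267 genes were called (*Ccnd1* 1.59, *Cdk4* edgeR adjusted p = 0.0367, *Cdk6* edgeR adjusted p = 0.0243), and with the library number as a block 4235 (*Cdk6* edgeR adjusted p = 0.0679). Sums with the block and the union exon length were added after seeing the data. Levels of *Cdk6* and *Ccne2* rest on few counts, which limits their precision.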
